A study of Mus musculus with 8 samples.

Results

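Ncam1, Ncam2 and Nrcam, 3 genes for neural cell adhesion molecules of the immunoglobulin superfamily, were examined as targets of Ptbp2 in the embryonic mouse cortex. The tags counted for them, each a sequenced RNA fragment, are those whose midpoint fell on the gene's strand within a fixed interval of the mm9 genome. The intervals were chromosome 9 from 49305000 to 49612000 on the minus strand for Ncam1, chromosome 16 from 81200000 to 81627000 on the plus strand for Ncam2, and chromosome 12 from 45430000 to 45704000 on the plus strand for Nrcam. They held 2742, 1276 and 942 tags, together 4960 of the 3098854 tags of the series (0.160%). No annotation of mm9 was used, so exons, introns and untranslated regions are not told apart and sites are placed by their distance from the edges of the interval.

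Ptbp2 is the neuronal relative of the splicing repressor Ptbp1. It binds pyrimidine-rich stretches of pre-mRNA and mostly represses nearby alternative exons, and its level falls as neurons mature. Ncam1 encodes NCAM, which binds itself on neighbouring cells in neurite growth, carries polysialic acid in the embryo, and is spliced into forms that differ in their membrane anchor and cytoplasmic tail. Ncam2 encodes a paralogue best known from olfactory axons. Nrcam encodes a member of the L1 family, which binds ankyrins and takes part in axon guidance and in the assembly of nodes of Ranvier.

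The RNA was crosslinked to Ptbp2 in the cortex of CD1 embryos at embryonic day 18.5, recovered with the protein and sequenced (HITS-CLIP). All 8 libraries carry a wild-type label, 4 from brain 2 and 4 from brain 1, so the comparison is between animals of one kind and not between treatments or genotypes. The 4 libraries of a brain share an animal, so the p-values between brains below measure only the spread between libraries of an animal. Tests over all 8 libraries mix that spread with the difference between the 2 brains. No p-value below measures how animals in general vary. No input RNA or library of another antibody was analysed here, so binding, transcript abundance and the number of cells that make a transcript cannot be told apart in a tag count, and markers of cortical cell types were not examined for lack of a matching annotation.

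Brain 2 was the shallower, with 228424 to 340852 tags a library against 458293 to 545387 in brain 1. Library 4 of brain 2 stood apart. It was the smallest, and 18.6% of its tags repeated the start and end of another, against 8.09 to 12.8% in the other 7 libraries. Comparisons of the brains are therefore also given without it where that moves them. The libraries' titles also carry a letter within each brain, a for libraries 1 and 2 and b for libraries 3 and 4. The meaning of the letter is not given in the labels.

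Each interval stood out from its surroundings on the strand of its gene. In Ncam1 98.8% of the tags lay on the gene's strand (exact Clopper-Pearson 95% interval 98.3 to 99.2%), with 33 on the other strand. In Nrcam the share was 94.8% (93.2 to 96.1%), with 52 tags on the other strand. In Ncam2 it was 92.8% (91.3 to 94.1%), with 99. The intervals here and below cover counting error only. Tags on the gene's strand numbered 8.93 per kb in Ncam1, and 0.42 and 0.58 per kb in the 50 kb before and after the interval. Nrcam held 3.44 tags per kb, against 1.04 upstream and 0.22 downstream. Ncam2 held 2.99, against 0.06 and 0.48. The mean over all chromosomes was 0.571 tags per kb of one strand. In the RefSeq gene table of GRCm38.p6, used for names and order only, Ncam1 overlaps the non-coding gene Gm11149, whose strand the table does not give, and Nrcam lies next to Pnpla8.

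The 3 loci differed in density. Scaled to library depth (CPM, tags per 1000000 tags of the library) and to length, Ncam1 held 2.83 ± 0.36 CPM per kb over the 8 libraries, Nrcam 1.08 ± 0.17 and Ncam2 0.946 ± 0.134 (SD, n = 8). Within a library Ncam1 exceeded Nrcam by 2.38 to 2.95 times and Ncam2 by 2.71 to 3.28 times, and its lowest library lay above the highest of either. Nrcam and Ncam2 were not separated by their spread, since Nrcam was the denser in 7 of 8 libraries but by 0.975 to 1.30 times. Among 12319 features, the 3 loci and the strand-specific 300-kb tiles with enough tags to be tested below, Ncam1 ranked 23rd in pooled tags per kb, Nrcam 250th and Ncam2 334th. The median feature held 0.497 tags per kb. The loci are intervals set to a gene and its strand, while the tiles are a fixed grid laid without regard to genes. The ranks, and the comparisons with tiles below, thus set unlike units side by side.

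Tags were not spread evenly along the genes, and each gene had its own profile. In Ncam2 50.3% of the tags (95% interval 47.5 to 53.1%) lay in the first of 4 equal segments of the interval, counted from its 5′ edge, and 27.3%, 8.86% and 13.6% in segments 2 to 4. In Nrcam the shares in the direction of transcription were 37.3% (34.2 to 40.4%), 24.3%, 17.7% and 20.7%. Ncam1 did not have its fullest segment at the 5′ end, with 23.1%, 28.0%, 18.0% and 30.9% (29.1 to 32.6%) in segments 1 to 4. The longest stretch with no tag midpoint was 2.72 kb in Ncam1, 9.73 kb in Nrcam and 10.4 kb in Ncam2.

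In bins of 10 kb from the 5′ edge, the fullest bin of Ncam1 lay 290 to 300 kb along and held 322 tags, 11.7% of the locus, where its median bin held 81. That bin drew 96.9 CPM in brain 2 and 108 CPM in brain 1. In Ncam2 the fullest bin lay 20 to 30 kb along, with 123 tags against a median of 16 (42.0 CPM in brain 2 and 38.3 in brain 1). In Nrcam it lay 60 to 70 kb along, with 71 tags against a median of 31.5 (15.4 CPM in brain 2 and 27.4 in brain 1). The profiles of the brains followed each other closely in Ncam1 (Pearson r = 0.965 over 31 bins, Spearman rho = 0.893), less so in Ncam2 (r = 0.904 over 43 bins, rho = 0.833) and least in Nrcam (r = 0.760 over 28 bins, rho = 0.796). Without library 4 of brain 2 Pearson r was 0.95, 0.88 and 0.77 in these genes. These correlations are across bins, which share libraries and depth, and Nrcam has the fewest tags.

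**Figure D1:**
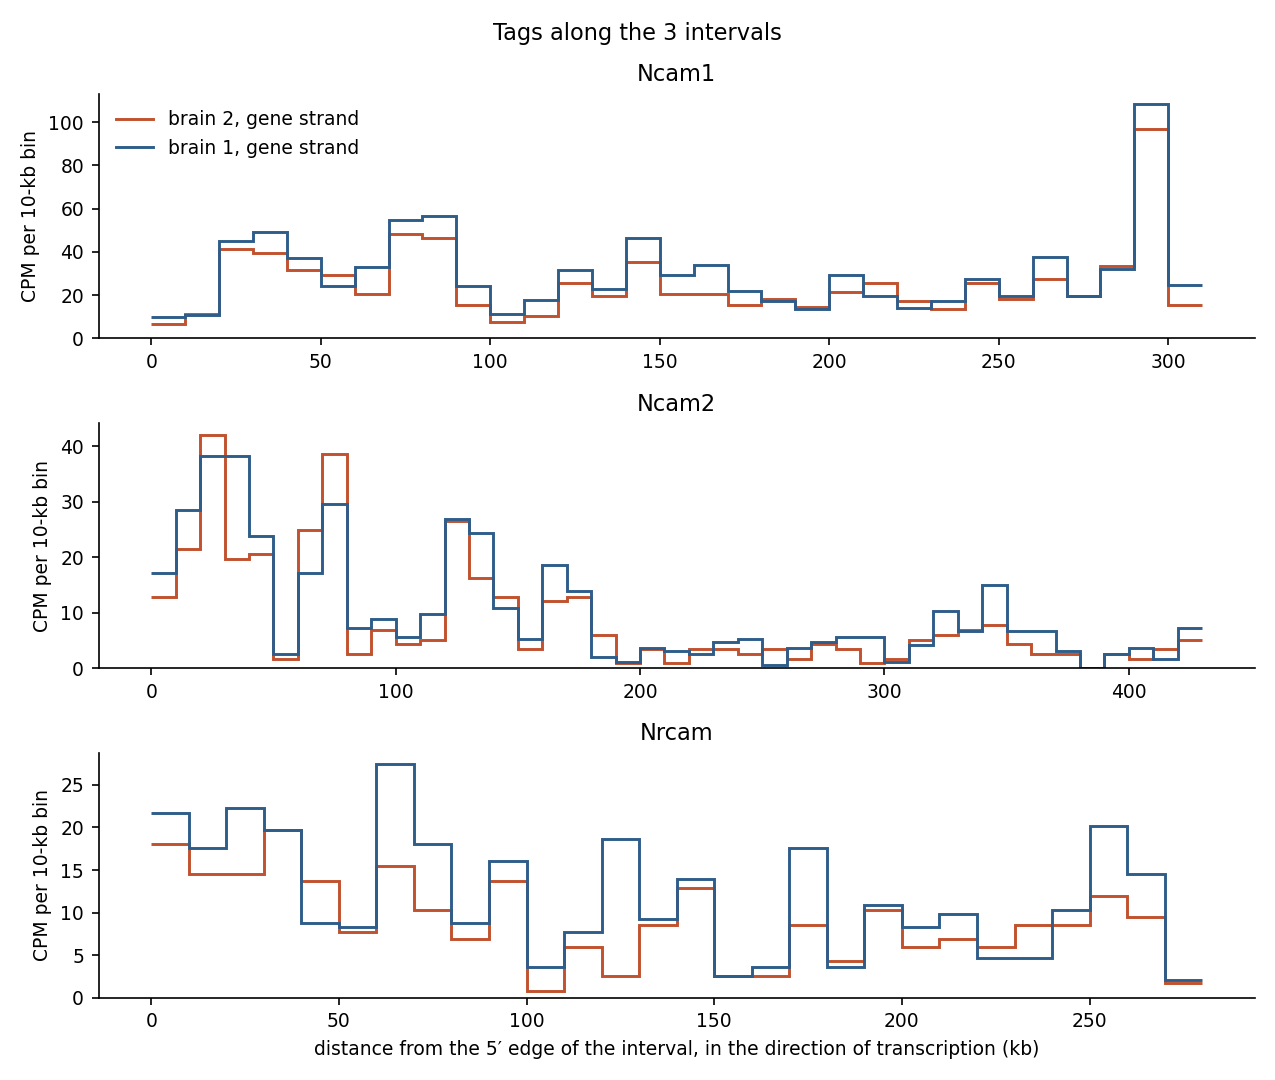
Tags on the gene's strand per 10-kb bin, in CPM of the pooled libraries of brain 2 (red-brown) and brain 1 (blue), against distance from the 5′ edge of the interval in kb. The vertical axes differ, the last bin of each gene is partly outside the interval, and the tallest step is the Ncam1 bin at 290 to 300 kb, with 96.9 CPM in brain 2 and 108 CPM in brain 1.

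Placed in the fixed 10-kb grid of the genome, the fullest Ncam1 window, from 49310001 to 49320000, held 383 tags and ranked 61st of 34816 windows with 20 or more tags, of which 0.175% were at least as full. The fullest Ncam2 window began at 81220001 with 123 tags and the fullest Nrcam window at 45490001 with 71. Of all windows, 3.61% and 12.1% were at least as full as these. The median over the windows of a gene that reached 20 tags was 69.5 in Ncam1, 49 in Ncam2 and 39 in Nrcam, against 32 over all 34816.

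Tags of all libraries that overlapped by 1 nt or more on a strand were joined into clusters, whose height is the tag depth at the deepest base. At a height of 10 or more there were 29 in Ncam1, 15 in Ncam2 and 5 in Nrcam, which is 9.45, 3.51 and 1.82 per 100 kb. All 49 held tags of both brains, as did 99.1% of the 22803 such clusters of the genome, and 11 of them (22.4%) held tags of all 8 libraries, against 23.8% of those of the genome. They were narrow, with a median width of 46 nt in Ncam1, 43 nt in Ncam2 and 42 nt in Nrcam, against 42 nt over the genome. At the other end, 525 of the 948 clusters of Ncam1, 350 of 585 in Ncam2 and 319 of 487 in Nrcam were a single tag.

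The clusters of Ncam1 crowded near its 3′ end. Segment 4 held 15 of the 29, segment 1 held 7, segment 2 held 6 and segment 3 held 1. A stretch of 4177 nt from 49311339 to 49315515, which lies 6.35 to 10.5 kb from the 3′ edge of the interval, held 8 clusters and 328 tags, 12.0% of the locus. That share was 8.24 to 14.7% over the libraries of brain 2 and 10.5 to 13.7% over those of brain 1. The stretch was picked as the densest of up to 5 kb in the gene. Those picked alike in Ncam2 and Nrcam held 3 clusters and 1. In Ncam2 10 of 15 clusters lay in segment 1 and 3 in segment 2, and in Nrcam 4 of 5 lay in segment 1. Another cluster lay within 1000 nt of 16 of the 29 Ncam1 clusters (55.2%), and within 200 nt of 7 (24.1%, against 11.4% of all clusters of the genome). In Ncam2 and Nrcam none of the 15 and none of the 5 had another within 1000 nt, where 20.6% of all clusters of the genome did.

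**Figure D2:**
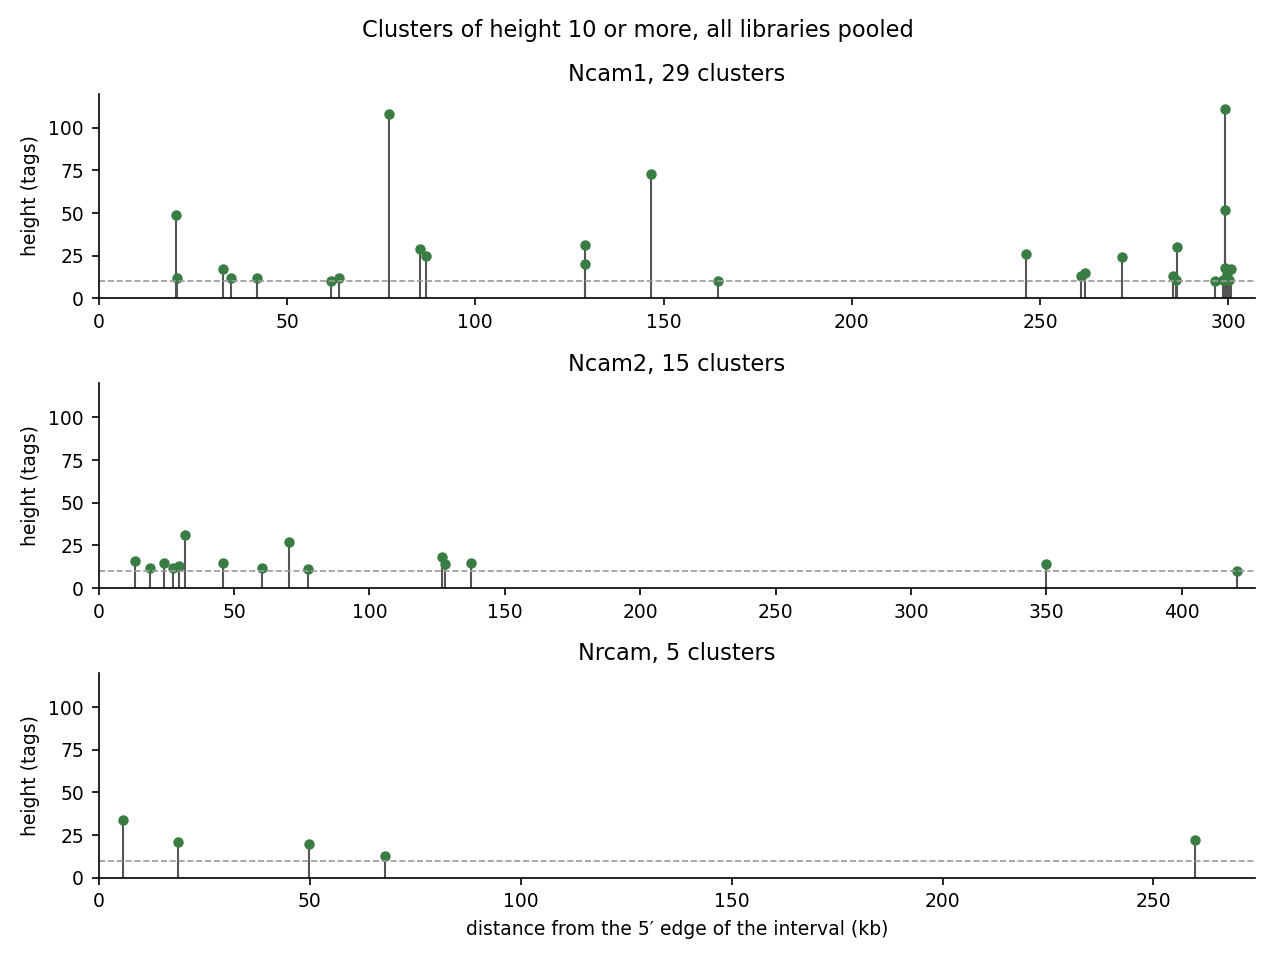
Height, in tags over the highest base with all 8 libraries pooled, of each cluster of height 10 or more (points on stems) against distance from the 5′ edge of the interval in kb; the dashed line marks a height of 10. Ncam1 has 29 clusters up to 111 tags high with 8 of them packed near the right end, while the 15 of Ncam2 and the 5 of Nrcam lie mostly to the left.

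The tallest Ncam1 cluster lay within that 3′ stretch, from 49312751 to 49312814, and was 111 tags high. Its tags numbered 12, 9, 15 and 14 in libraries 1 to 4 of brain 2 and 21, 15, 12 and 16 in those of brain 1. It was thus drawn from every library, at 44.4 ± 13.9 CPM in brain 2 and 32.9 ± 5.13 CPM in brain 1 (SD, n = 4 each), and the brains overlapped. The cluster ranked 4, from 49312832 to 49312920 with a height of 52, began 17 nt beyond it. That one held 5, 5, 6 and 0 tags in brain 2 and 17, 6, 9 and 9 in brain 1. A further cluster, named for its place and not its rank, ran from 49312940 to 49312985 with a height of 18 and followed after 19 nt.

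The second tallest Ncam1 cluster lay far from these, from 49534989 to 49535043, 77.0 kb from the 5′ edge, with a height of 108. It held 10, 14, 6 and 15 tags in brain 2 and 18, 14, 14 and 17 in brain 1. The third, from 49465335 to 49465368, had a height of 73, with 4, 6, 10 and 8 tags in brain 2 and 13, 13, 7 and 12 in brain 1. The cluster ranked 5, from 49591559 to 49591601, was 49 tags high and lay 20.4 kb from the 5′ edge, with 2, 7, 5 and 1 tags in brain 2 and 4, 7, 11 and 12 in brain 1. Another pair of neighbours, likewise named for their place, with heights of 31 and 20, ran from 49482869 to 49482900 and from 49482904 to 49482943.

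The clusters of Ncam2 were lower. Its tallest, from 81231986 to 81232041, had a height of 31 and lay 32.0 kb from the 5′ edge, with 1, 3, 3 and 4 tags in brain 2 and 5, 3, 3 and 9 in brain 1. The next, from 81270182 to 81270235, had a height of 27, with 2, 4, 7 and 2 tags in brain 2 and 3, 1, 3 and 5 in brain 1. In both, the libraries of the brains overlapped. Those ranked 3 to 5, of heights 18, 16 and 15, began at 81326671, 81213396 and 81224102 and held 0 to 6 tags a library.

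Of the Nrcam clusters, the tallest lay 5.76 kb from the 5′ edge, from 45435744 to 45435785, with a height of 34. It held 6, 3, 3 and 1 tags in brain 2 and 6, 4, 2 and 9 in brain 1. The second, from 45689953 to 45689984, was the only one in segment 4, 14.0 kb from the 3′ edge, with a height of 22 and 0, 4, 0 and 2 tags in brain 2 and 3, 6, 3 and 4 in brain 1. The one from 45448760 to 45448789, 21 tags high, held 1, 1, 2 and 3 tags in brain 2 and 3, 3, 5 and 3 in brain 1, so like the tallest it drew on all 8 libraries. The one from 45479931 to 45479973, 20 tags high, held 7, 1, 0 and 2 tags in brain 2 and 3, 0, 3 and 4 in brain 1, and 5 libraries contributed to the lowest, 13 tags high, which began at 45497898.

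Many tags of the tall clusters shared 1 start and end. In the second tallest Ncam1 cluster 72 of 108 tags did (66.7%), in the tallest 56 of 114 (49.1%), and in the third 54 of 73 (74.0%). In Nrcam 20 of the 21 tags of the cluster that begins at 45448760 did (95.2%). The median share at the fullest position was 40% in Ncam1, 50% in Ncam2 and 55.9% in Nrcam, against 41.2% over all 22803 clusters. Whether such tags are copies of 1 molecule was not tested. Counted once per library, the tallest Ncam1 cluster kept 46 of 114 tags and the second 34 of 108.

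Against the libraries as a whole, Ncam1 was rich in clustered and in repeated tags. Clusters of height 10 or more took 26.6 to 35.9% of its tags, against 15.1 to 18.7% of all tags, and the share was higher in 8 of 8 libraries (exact two-sided sign-flip permutation test, p = 0.00781, the smallest possible). In Ncam2 they took 14.7 to 25.2%, higher in 7 of 8 (exact p = 0.117), and in Nrcam 6.10 to 25.4%, higher in 2 of 8 (exact p = 0.164). Tags that repeat a position made up 12.2 to 30.4% in Ncam1 and 9.76 to 31.4% in Ncam2, against 8.09 to 18.6% of whole libraries, and were more frequent in 8 of 8 libraries for both (exact permutation p = 0.00781 each). In Nrcam they made up 8.54 to 21.4% (higher in 7 of 8, exact permutation p = 0.148). Tags of the full 30 nt were more frequent too, by 11.8 percentage points in Ncam1 and 7.97 in Ncam2 (8 of 8 libraries, exact permutation p = 0.00781 each) and by 5.09 in Nrcam (7 of 8, exact permutation p = 0.0156). These 9 tests were chosen after the values were seen and treat as independent 8 libraries that came from 2 brains. Clusters were also called on the pool of these same libraries. A fixed height and a repeated position are both reached more easily where tags are dense. Ncam1 held 8.93 tags per kb, against a mean of 0.571 over all chromosomes. The shares in clusters and of repeats were not compared at equal density, so their tests cannot separate them from density.

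All 3 loci had a lower mean CPM in brain 2, by a margin that, scaled to total tags and with all libraries and tags, reached the smallest possible p in Nrcam only. Nrcam had 236, 249, 241 and 298 CPM in libraries 1 to 4 of brain 2, against 332, 351, 335 and 322 CPM in those of brain 1. The libraries of the brains did not overlap, and the means were 256 ± 28.5 CPM in brain 2 and 335 ± 12.3 CPM in brain 1 (SD, n = 4 each, two-sided exact permutation p = 0.0286, the smallest that 4 against 4 libraries can give). Of 12319 features, 2.53% were likewise lower in every library of brain 2. Ncam1 had 677, 775, 795 and 950 CPM in brain 2, against 1005, 936, 894 and 916 CPM in brain 1. Its means were 799 ± 113 CPM in brain 2 and 938 ± 47.9 CPM in brain 1 (SD, n = 4 each, exact permutation p = 0.114). Ncam2 had 307, 398, 337 and 447 CPM in brain 2, against 477, 445, 400 and 422 CPM in brain 1, with means of 372 ± 62.4 CPM in brain 2 and 436 ± 32.8 CPM in brain 1 (SD, n = 4 each, exact permutation p = 0.143).

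In both of these the brains overlapped through library 4 of brain 2, and without it the differences were -189 CPM in Ncam1 and -88.6 CPM in Ncam2 (exact permutation p = 0.0286 each, again the smallest possible). Among 12990 features, 5.09% were lower in all 3 remaining libraries of brain 2 than in any of brain 1. The sizes depended on the scaling. With scaling factors from 10-kb windows (a trimmed mean of their log ratios) in place of total tags, the differences between brain 2 and brain 1 were -34.8 CPM in Ncam1 (exact permutation p = 0.343), -14.2 CPM in Ncam2 (p = 0.629 by the same permutation test) and -43.2 CPM in Nrcam (p = 0.0286 by the same permutation test). Counting repeated positions once moved the genes in opposite ways, to -62.1 CPM in Nrcam (exact permutation p = 0.0571), -76.3 CPM in Ncam2 (exact permutation p = 0.0286) and -127 CPM in Ncam1 (exact permutation p = 0.0571). With any 1 library of brain 1 left out, the Nrcam difference was -83.7 to -73.7 CPM and the brains still did not overlap. It did not reach the smallest p (exact permutation p = 0.0571 each), since another arrangement gave as large a difference in the other direction. Without library 4 of brain 2 the Nrcam difference was -93.2 CPM (exact permutation p = 0.0286).

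**Figure D3:**
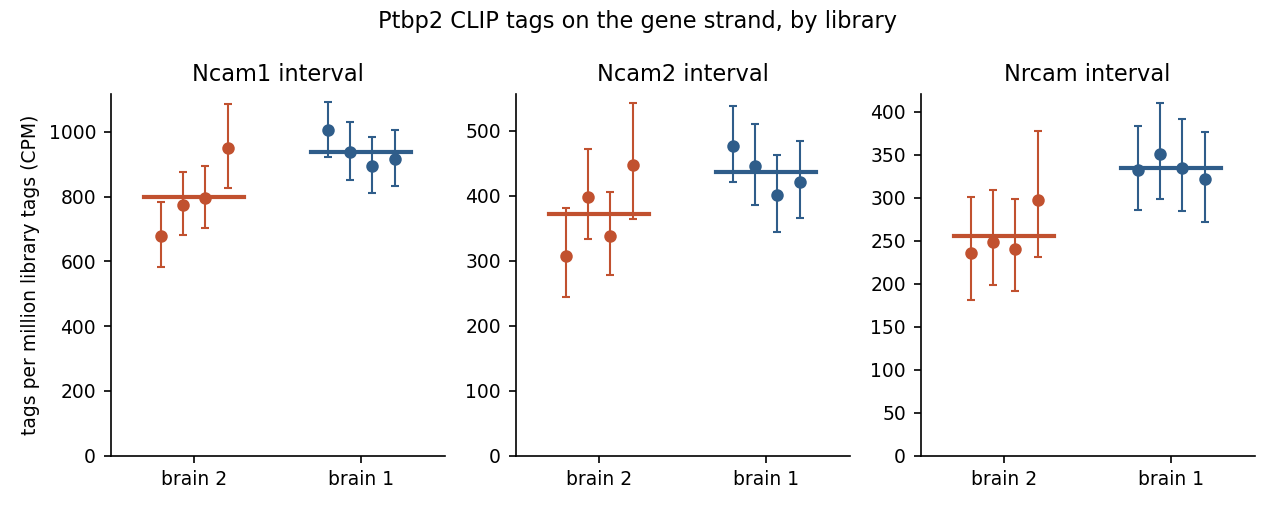
CPM on the gene's strand of each interval, by library (points, libraries 1 to 4 from left to right) with exact 95% counting intervals (bars) and the mean of each brain (horizontal lines). The 4 Nrcam points of brain 2 lie between 236 and 298 CPM, below the 322 to 351 CPM of brain 1, while in Ncam1 and Ncam2 library 4 of brain 2 lies among those of brain 1.

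To set these differences against the genome, the 3 loci were fitted together with the 300-kb tiles by limma voom, with p-values adjusted by Benjamini and Hochberg over all 12319. The log2 change of brain 2 over brain 1 was -0.45 ± 0.14 for Nrcam (SE, 95% interval -0.73 to -0.16, limma voom, adjusted p = 0.188), -0.29 ± 0.12 for Ncam1 (adjusted p = 0.321) and -0.29 ± 0.14 for Ncam2 (adjusted p = 0.413). None passed the threshold of 0.05, which 0.479% of all features did, 0.382% with a lower level in brain 2. The unadjusted limma p was under 0.05 and the change negative for all 3 loci, as for 6.28% of all features, and the median change over all features was 0.021. Without library 4 of brain 2 the changes were -0.53 for Nrcam (limma adjusted p = 0.0353) and -0.39 for Ncam1 (adjusted p = 0.0391), which then passed, as did 1.39% of features in that direction, and -0.40 for Ncam2 (adjusted p = 0.119).

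Features as dense as the loci mostly lay on the same side. Of 82 tiles within 1.5 times the density of Ncam1, 81 had a negative change, with a median of -0.30, and 15.9% of the 82 passed the adjusted threshold. Of 536 within that range of Ncam2, 489 were negative with a median of -0.25, and of 422 within that range of Nrcam, 387 were negative with a median of -0.27. Of these, 3.54% and 4.27% passed. Without library 4 of brain 2, 43.4%, 12.5% and 18.1% of the tiles as dense as Ncam1, Ncam2 and Nrcam passed. The change of Ncam1 was thus close to the median of its like, and 13.5% of the tiles about as dense as Nrcam had a lower change than Nrcam.

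**Figure D4:**
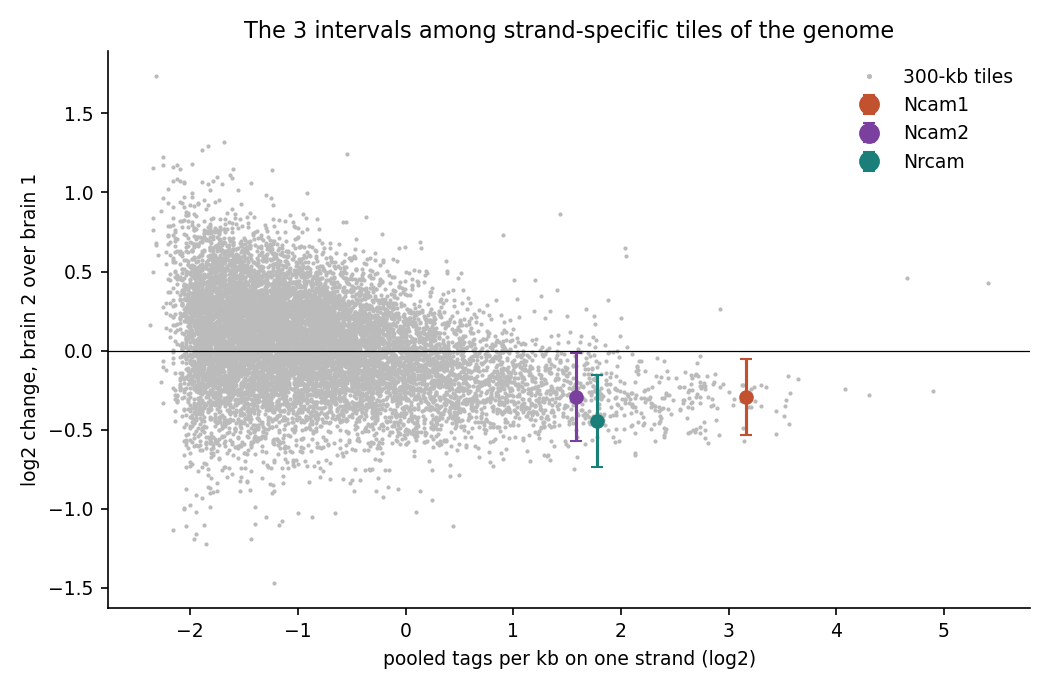
Log2 change of brain 2 over brain 1 from the limma voom fit against pooled tags per kb on one strand (log2), for 300-kb tiles (grey) and the 3 loci (coloured points with 95% intervals). Ncam1, at -0.29, lies amid tiles of its density, whose median is -0.30, and Nrcam, at -0.45, lies lower than most of its own.

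No single site within the loci passed the same test between brains. Scaling factors were made separately for tiles, windows and clusters, so changes of these kinds are not on one scale. Scaled to total tags, the median log2 change was -0.21 over windows, 0.16 over clusters and 0.071 over tiles. With the factors used here it was -0.0065, 0.016 and 0.021. Of 3757 windows of 10 kb tested over the genome, 14 lay in Ncam1, 5 in Ncam2 and none in Nrcam. No Nrcam window reached the CPM that the count filter asked for in 4 libraries. None of the 19 passed an adjusted p of 0.05 (limma voom), as 1.14% of all windows did, and 1 had an unadjusted p under 0.05, where 10.2% of all windows did. That was the Ncam2 window at 81270001, which holds the second tallest Ncam2 cluster, with scaled levels of 41.9 ± 6.80 CPM for brain 2 and 27.9 ± 9.80 CPM for brain 1 (SD, n = 4, log2 change 0.62 ± 0.28 SE, limma adjusted p = 0.390), named after its values were seen. The unadjusted limma p of that window, 0.0309, became 0.139 scaled to total tags, 0.103 with no count filter and 0.398 with repeated positions counted once. It was 0.0255 with the letter of the titles as a random block and 0.0219 with libraries paired by number (limma, unadjusted). The scaled level of the fullest Ncam1 window was 118 ± 21.0 CPM for brain 2 and 122 ± 16.6 CPM for brain 1 (SD, n = 4). Its log2 change was -0.065, with a 95% interval of -0.39 to 0.27 (limma adjusted p = 0.936). That of the fullest Ncam2 window was 45.4 ± 6.09 CPM for brain 2 and 35.9 ± 5.67 CPM for brain 1 (SD, n = 4, log2 change 0.35 ± 0.25 SE, limma adjusted p = 0.721).

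Of 466 clusters tested, 3 lay in the loci, the 3 tallest of Ncam1. Their log2 changes were 0.20 ± 0.26, -0.045 ± 0.30 and -0.055 ± 0.41 (SE, limma adjusted p = 0.707, 0.956 and 0.958), where 1.29% of all clusters passed. An unadjusted p under 0.05 was seen in 0 of the 3 and in 19.1% of all 466. None of the 49 clusters of the loci had all libraries of one brain above all of the other, as 4.28% of the 22803 clusters did. Without library 4 of brain 2, 1 of the 49 did, the Ncam2 cluster from 81227608 to 81227642, with 0, 1 and 0 tags in libraries 1 to 3 of brain 2 and 3, 2, 3 and 2 in brain 1, against 8.34% of all 22803. Each brain's tags were also clustered on their own, at a height of 5 or more. In Ncam1 18 of 22 clusters of brain 2 overlapped one of brain 1 (81.8%), and 18 of 62 of brain 1 one of brain 2 (29.0%). In Ncam2 these were 10 of 10 (100%) and 10 of 31 (32.3%), and in Nrcam 4 of 5 (80%) and 4 of 20 (20%). Without library 4 the clusters of brain 2 numbered 16, 7 and 3, of which 15, 7 and 2 overlapped one of brain 1. Brain 1 is the deeper, and its extra clusters were not compared at equal depth. The same shares were not computed over all clusters of the genome, so whether those of the loci are ordinary for these libraries is not known.

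Among windows with 20 or more tags, with no further filter, the brains did not overlap in 2 of 21 in Nrcam, 1 of 18 in Ncam2 and 0 of 30 in Ncam1, where 4.77% of all 34816 did so. The Nrcam windows, chosen like the Ncam2 one for their values, began at 45550001, with scaled levels of 2.37 ± 3.09 CPM for brain 2 and 19.0 ± 12.0 CPM for brain 1, and at 45600001, with 8.49 ± 3.71 CPM for brain 2 and 17.2 ± 3.55 CPM for brain 1 (SD, n = 4 each). The Ncam2 window began at 81230001, with 19.7 ± 8.19 CPM for brain 2 and 37.7 ± 13.7 CPM for brain 1 (SD, n = 4 each), and its brains overlapped under the scaling of the filtered fit. The Ncam1 count also depended on the scaling. Scaled to total tags, the brains did not overlap in the Ncam1 window at 49480001, as in 7.45% of the 3757 windows of the filtered fit. That window had 25.8 ± 0.995 CPM for brain 2 and 35.1 ± 8.27 CPM for brain 1 (SD, n = 4 each). None of the windows named here passed the limma test.

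The share of tags on the 5′ side of the genes was the single measure of position tested, and it did not differ between brains beyond the spread of all 8 libraries. The share upstream of the interval's midpoint was 49.8 ± 1.26% in brain 2 and 52.2 ± 3.46% in brain 1 for Ncam1 (SD, n = 4 each, exact permutation p = 0.314). For Ncam2 it was 80.1 ± 5.37% in brain 2 and 76.2 ± 2.22% in brain 1 (SD, n = 4 each, exact permutation p = 0.257), and without library 4 of brain 2 the difference grew to 6.42 percentage points (exact permutation p = 0.0286). For Nrcam it was 60.1 ± 3.14% in brain 2 and 62.5 ± 6.78% in brain 1 (SD, n = 4 each, exact permutation p = 0.571). The permutation test took no account of the letter in the titles. In brain 1 the Ncam1 share was 48.2 and 50.3% for letter a and 54.7 and 55.3% for b. The Nrcam share there was 54.7 and 59.6% for a and 65.6 and 70.2% for b. In brain 2 Ncam1 went the other way, with 51.4 and 50.2% for a and 48.7 and 48.8% for b. The letters overlapped in Nrcam of brain 2 and in Ncam2 of either brain.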

How the data were processed

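The authors deposited one list of mapped tags from all 8 libraries, 1 row per tag, and no other unit of measurement. Per the submitters' processing notes, reads were mapped with Bowtie, and mm8 and mm9 are named. Since tags on chromosome 1 run to position 197194446, past its end in mm8, positions are taken as mm9, and they are given 1-based. Reads open with 4 degenerate bases and a G, per the labels' protocols. The sources used here do not say how repeats and multiple matches were handled. The score in the deposited file is 0 throughout and was not used.

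Tags were assigned to libraries by the code in their names and to genes by midpoint and strand. The genes, intervals and tests were chosen with earlier results of these data known. Sites named are the 5 tallest clusters and the fullest window of each gene, and any past the threshold; others are marked. Windows, tiles and clusters needed the CPM of 10 tags in a library of median depth in 4 libraries, and 15 tags in all. These counts, made here from the tag list, were fitted on the whole table with limma 3.58.1 (voom, R 4.3.3), with factors from log ratios trimmed by 30% and levels by 5%. The tiles were added after the data were seen. Libraries of a brain differed by more than sampling noise (chi-square per degree of freedom 1.12 to 1.47 over windows) and were kept apart. No sequences are shown, since no mm9 genome was used here, and genes of the same pathway, planned for the case of an mm9 annotation, are not analysed here.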

Additional observations from a re-analysis of the deposited data

Results flagged for a closer look

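Among 18 sets of 4 libraries of one brain (CPM, share upstream of the midpoint and share in clusters, for each gene), a single set held 1 library well apart from the remaining 3, and chance alone would give about 1 in 20. Clusters of height 10 or more took 17.2% of the Nrcam tags in library 4 of brain 1, against 9.39%, 9.32% and 8.44% in libraries 1 to 3 of that brain and 25.4%, 12.2%, 6.10% and 11.8% in libraries 1 to 4 of brain 2.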

How the results depend on the processing

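The count filter let only 3 of 49 clusters and 19 windows of the loci be tested. At a height of 5 or more the clusters numbered 110 in Ncam1, 47 in Ncam2 and 31 in Nrcam, and at 20 or more 12, 2 and 4. Counting each repeated position once left, at a height of 10 or more, 20 of 29 in Ncam1, 9 of 15 in Ncam2 and 3 of 5 in Nrcam. The Ncam2 difference in CPM between brains then became -76.3 CPM (exact permutation p = 0.0286). That of Nrcam missed the threshold with repeated positions counted once (-62.1 CPM, exact permutation p = 0.0571), without tags of tall clusters (-86.9 CPM, exact permutation p = 0.0571) and with the replicate block (-79.2 CPM, paired exact permutation p = 0.125, the smallest that 4 pairs can give). Leaving out 1 library gave -189 to -97.7 CPM in Ncam1, -88.6 to -41.97 in Ncam2 and -93.2 to -72.5 in Nrcam, log2 changes among tiles of -0.39 to -0.21, -0.40 to -0.20 and -0.53 to -0.40, and differences in the share upstream of the midpoint of -3.70 to -1.31, 2.19 to 6.42 and -4.99 to 0.18 percentage points, the last turned by leaving out library 4 of brain 1. The cause was not tested. Small changes that never passed also turned. The fullest Ncam1 window gave 0.013 with repeated positions counted once, -0.26 with total scaling and -0.17 to 0.022 with 1 library left out. The second tallest Ncam1 cluster gave 0.093 with total scaling, 0.15 with the replicate block and -0.26 to 0.40 with 1 library left out, and the third 0.064 with total scaling and -0.18 to 0.12 with 1 library of brain 2 left out, since it could not be tested without one of brain 1. Libraries of one number did not deviate together (correlations of -0.025 to 0.0060 over 3307 windows), so the block pairs by number only, and it left 3 of 12319 features called in place of 59. No window of the loci was called under any of the 13 alternatives, and no cluster under the 12 in which one was tested. With the letter of the titles as a random block, 20 features were called, and none of the 3 loci. In the whole genome calls ranged from 8 to 50 windows, 1 to 15 clusters and 2 to 211 tiles, against 43, 6 and 59.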

Other observations

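Opposite-strand tags of Ncam2 gathered in a few places. Of its 43 bins of 10 kb, 6 held more than 5 tags on the minus strand, the fullest 17 at 60 to 70 kb from the 5′ edge, where the gene's own strand held 62. At 410 to 420 kb there were 13 on the minus strand and 7 on the plus strand. In Ncam1 and Nrcam 1 and 2 bins held more than 5, the fullest with 6 and 10. These values were chosen after they were seen and were not tested.

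Over the 8 libraries, the group of linked clusters elsewhere whose log2 CPM followed Ncam1 most closely spanned 6809381 to 7201718 of chromosome 16, plus strand, and held 93 clusters (Pearson r = 0.981), followed by one on the minus strand from 75222705 (r = 0.905). For Ncam2 these were the plus strand of chromosome 11 from 56834528 (r = 0.935) and the same chromosome 16 group (r = 0.925), and for Nrcam the plus strand of chromosome 15 from 83611038 (r = 0.928) and of chromosome 3 from 118137178 (r = 0.909). They are the highest of 180 groups of 10 or more clusters, and the libraries share depth and brain.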
